A study of Sus scrofa with 6 samples.

Results

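Genes of growth arrest and nutrient stress were followed in intestinal epithelial cells given chenodeoxycholic acid (CDCA), a primary bile acid. They were the 3 GADD45 genes (GADD45A, GADD45B and GADD45G), the 3 sestrin genes (SESN1, SESN2 and SESN3), DDIT4 and the cyclin G genes CCNG1 and CCNG2. These 9 genes were picked by name from the 31908 Ensembl pig gene IDs of the deposited expression table, with the CDCA against CON values of these libraries already known. Their differences between the groups are therefore described here without a test.

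The cells were IPEC-J2, an untransformed pig line of small-intestinal enterocytes, and the labels name no genetic change in them. The CON group held 3 libraries of cells that received PBS and the CDCA group 3 libraries of cells that received CDCA at 50 μM, in both cases over 24 h. The study calls the libraries of a group biological replicates, but the labels do not say whether they came from separate cultures, so p-values measure the spread between these libraries, which may be technical. RNA was taken from whole cultures, so fewer cells that use a gene and less of its RNA per cell cannot be told apart. Abundance is given as TPM, a share of all transcripts that corrects for their length, and the read depth behind each value is unknown.

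The listed TPM of a library summed to between 351770 and 366073, or 35.2% to 36.6% of the 1000000 to which TPM sum over all transcripts. Most of the TPM is thus not accounted for by the rows analysed here, and gene sums and transcript shares may be incomplete. Pearson's r of log2(TPM + 1) over the 8708 genes that entered the fit was 0.972 to 0.980 within groups and 0.927 to 0.934 between them (genes are not independent replicates). Of the epithelial markers, EPCAM, KRT8, KRT18 and CLDN4 were abundant, with means between 65.6 TPM (KRT18) and 226 TPM (KRT8) in CON. CDH1, CLDN7, VIL1 and CDX2 were each listed under 1 TPM in every library. CLDN4, a tight junction claudin, rose from 225 ± 11.2 to 806 ± 50.5 TPM (SD, n = 3 per group), a log2 fold change of 1.84 (limma FDR 3.7e-06). With it, the summed TPM of the 8 epithelial markers listed was 624 to 648 in CON and 1182 to 1322 in CDCA, and the part of this in the results that follow was not tested. All 8 fibroblast and smooth muscle markers summed to between 1.04 and 1.99 TPM in every library. The 4 endothelial markers listed summed to between 1.90 and 2.74 TPM. The 6 leukocyte markers summed to 19.6 to 21.7 TPM in CON and 17.9 to 20.0 TPM in CDCA. Nearly all of this was LYZ, a lysozyme gene that epithelia also use, while the defining marker PTPRC was between 0 and 0.01 TPM.

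The GADD45 genes encode small acidic proteins that rise with DNA damage and other stress. They bind the kinase MAP3K4 and so feed the p38 and JNK pathways, and they also bind PCNA and the CDK1 and cyclin B1 pair, which carries cells into mitosis. Sestrins link stress to growth control: SESN2 senses leucine and, when leucine is scarce, holds back the GATOR2 complex and with it the kinase complex mTORC1. DDIT4, also called REDD1, acts on mTORC1 by another route, through the TSC1 and TSC2 complex. Cyclins G1 and G2 are unusual cyclins that bind protein phosphatase 2A and are tied to cell cycle arrest. Several of these genes are known targets of p53, of FOXO factors, or of ATF4 and CHOP, the transcription factors of the amino acid and unfolded protein responses.

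The largest difference among the 9 genes was that of SESN2. SESN2 (ENSSSCG00000029438) was listed at 1.51, 1.81 and 2 TPM across CON and 20.07, 20.74 and 19.93 TPM across CDCA. The lowest CDCA library lay 9.97 times above the highest CON library. The means were 1.77 ± 0.247 and 20.2 ± 0.433 TPM (SD, n = 3 per group), a ratio of 11.4. On log2(TPM + 1), a scale that shrinks the change of weakly expressed genes, the fitted difference was 2.94 (SE 0.08, 95% interval 2.74 to 3.14). In the order of the 8708 tested genes from the largest rise, it stood at rank 11.

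The other sestrins showed no such separation. SESN1 (ENSSSCG00000004390), the sestrin most often described as a p53 target, was listed at 1.46, 1.26 and 0.84 TPM across CON and 1.58, 1.33 and 0.81 TPM across CDCA. The 2 ranges overlapped almost fully, and the difference on log2(TPM + 1) was 0.03, with a 95% interval from -0.41 to 0.47. That interval leaves room for a moderate change in either direction. SESN3 (ENSSSCG00000037015), a FOXO target in other cells, was listed at 0.50, 0.87 and 0.59 TPM across CON and 0.81, 0.86 and 0.89 TPM across CDCA. All but 1 of the CON values were below the CDCA values, the exception being CON replicate 2. Its mean over the 6 libraries, 0.753 TPM, was under the limit of 1 TPM for the fit.

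The make-up of the sestrin transcripts differed between the groups. Summed over the 3 genes, sestrins were at 3.61 ± 0.284 across CON and 22.3 ± 0.658 TPM across CDCA (SD, n = 3 per group). SESN2 made up 43.5%, 45.9% and 58.3% of this sum across CON and 89.4%, 90.4% and 92.1% of it across CDCA. In CON, SESN1 held 32.8% ± 8.82 (SD, n = 3) of it and SESN3 17.9% ± 3.88 (SD, n = 3). In CDCA these shares were 5.53% ± 1.66 and 3.82% ± 0.262 (SD, n = 3 per group), while the levels of SESN1 and SESN3 themselves overlapped between the groups. The shares are taken within each library, so a scaling of the whole library leaves them as they are.

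**Figure D1:**
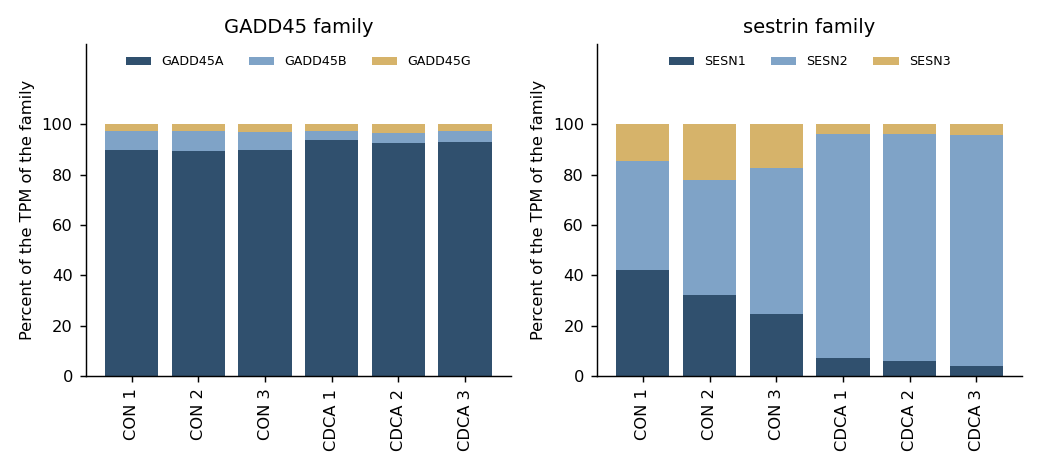
Share of each gene (percent, vertical axis) in the summed TPM of the GADD45 genes (left) and of the sestrin genes (right), with 1 bar for each of the 3 CON and 3 CDCA libraries. SESN2 takes 43.5% to 58.3% of the sestrin bars in CON and 89.4% to 92.1% in CDCA, whereas GADD45A takes over 89% of each GADD45 bar in both groups.

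GADD45A (ENSSSCG00000037066) was the most abundant of the 9 genes in both groups. It was listed at 54.79, 56.65 and 48.8 TPM across CON and 177.56, 166.03 and 153.22 TPM across CDCA. Each CDCA library was at least 2.70 times above each CON library. The means were 53.4 ± 4.10 and 166 ± 12.2 TPM (SD, n = 3 per group), and the difference on log2(TPM + 1) was 1.61 (SE 0.08), rank 92 of the tested genes. GADD45G (ENSSSCG00000035249) had a like ratio of mean TPM, 3.19 against 3.10 for GADD45A, at a far lower level. It was listed at 1.53, 1.61 and 1.66 TPM across CON and 4.96, 5.87 and 4.47 TPM across CDCA, with no overlap. At this low level, log2(TPM + 1) gave a difference of 1.22 (SE 0.11), below that of GADD45A.

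GADD45B (ENSSSCG00000022689), which NF-kB and TGF-beta signals are known to induce, differed least of the family. It was listed at 4.56, 5.14 and 3.89 TPM across CON and 7.08, 7.65 and 7.33 TPM across CDCA. The groups did not overlap, but the lowest CDCA library was 1.38 times the highest CON library. Its ratio of means was 1.62 and its difference on log2(TPM + 1) was 0.60, with a 95% interval from 0.37 to 0.84. The GADD45 genes together went from 59.5 ± 4.67 to 178 ± 12.4 TPM (SD, n = 3 per group). Within this sum, the share of GADD45B was 7.58% ± 0.482 in CON and 4.15% ± 0.368 (SD, n = 3 per group) in CDCA. The share of GADD45A was 89.7% ± 0.328 and 93.0% ± 0.602 (SD, n = 3 per group), and that of GADD45G stayed near 3% in both groups, at 2.70% ± 0.305 and 2.86% ± 0.353 (SD, n = 3 per group).

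CCNG2 (ENSSSCG00000008988), which encodes cyclin G2, a FOXO target that is high in resting cells, stood second to GADD45A in CON. It was listed at 6.59, 5.93 and 5.43 TPM across CON and 14.54, 14.84 and 15.71 TPM across CDCA. The spread within a group was small beside the gap between the groups, since each CDCA library was at least 2.21 times above each CON library. CCNG1 (ENSSSCG00000017024), the cyclin G gene that p53 induces, was listed at 0 in all 6 libraries. Of the gene IDs with a symbol, 19.2% were listed at 0 in every library. A 0 in this table can be a failed estimate, and PCNA, a gene that dividing cells use, was listed at 0.28 to 0.53 TPM. No level or direction can be given for CCNG1.

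DDIT4 (ENSSSCG00000031888) was also not measurable in a useful way. It was listed at 0.63, 0 and 0.39 TPM across CON and 0, 0 and 3.82 TPM across CDCA. CDCA replicate 3 thus held all of its signal in the CDCA group, and the other CDCA libraries were below CON replicates 1 and 3. No fold change is given for it. DDIT4L, its paralog, was under the 1 TPM limit as well, at 0.36 to 0.51 TPM across CON and 0.65 to 0.88 TPM across CDCA, with no overlap.

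**Figure D2:**
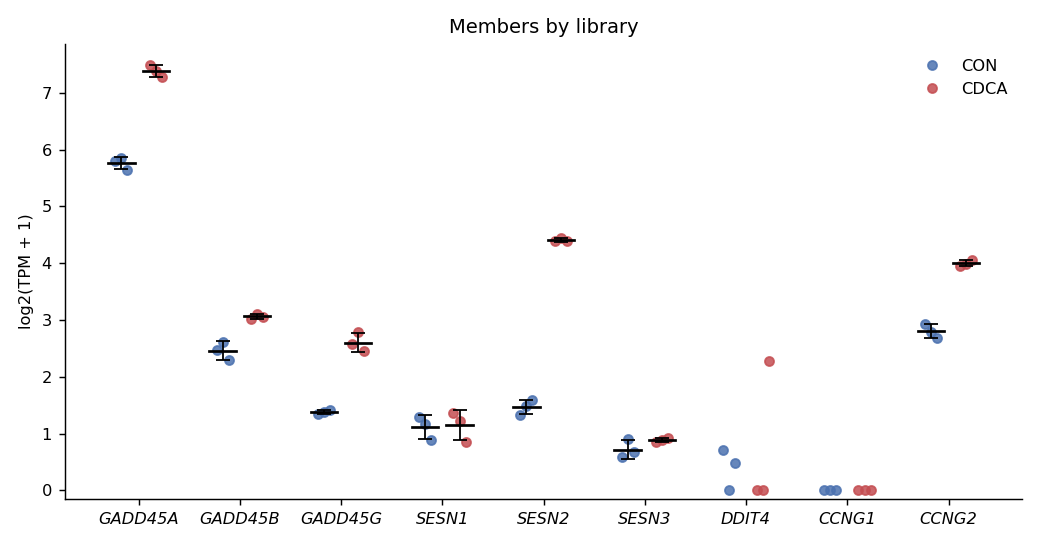
Level of each of the 9 genes as log2(TPM + 1) (vertical axis) in the 3 CON libraries (blue) and the 3 CDCA libraries (red); points are libraries, bars are the group mean, and whiskers are 1 SD (n = 3), both left out for DDIT4 and CCNG1. The red points lie above the blue points for GADD45A, GADD45B, GADD45G, SESN2 and CCNG2, and overlap them for SESN1, SESN3 and DDIT4.

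The order of the levels changed for SESN2 and DDIT4. In CON, mean TPM ran from GADD45A (53.4) to CCNG2 (5.98), GADD45B (4.53), SESN2 (1.77), GADD45G (1.60), SESN1 (1.19), SESN3 (0.653) and DDIT4. The libraries of GADD45A, CCNG2, GADD45B and SESN2 did not overlap with those of the next gene down, except that SESN2 overlapped GADD45G. GADD45G lay above SESN1 without overlap, and SESN1, SESN3 and DDIT4 overlapped their neighbours. In CDCA, SESN2 (20.2) lay second to GADD45A (166) and above CCNG2 (15.0), GADD45B (7.35) and GADD45G (5.10), each apart from its neighbours in every library. DDIT4 (1.27) came next, through CDCA replicate 3 alone, and overlapped SESN1 (1.24), which overlapped SESN3 (0.853).

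Over the 9 genes, every CDCA library lay above every CON library for 5, against 33.8% of all tested genes, and below it for none, against 27.8%. The genes were chosen with these values known, so nothing is read from these counts. Of the 6 genes that entered the fit, SESN1 lay in the middle of all tested genes, with 48.6% of them below it, and GADD45B had 87.3% of them below it. The others had between 97.5% (CCNG2) and 99.9% (SESN2) below them.

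**Figure D3:**
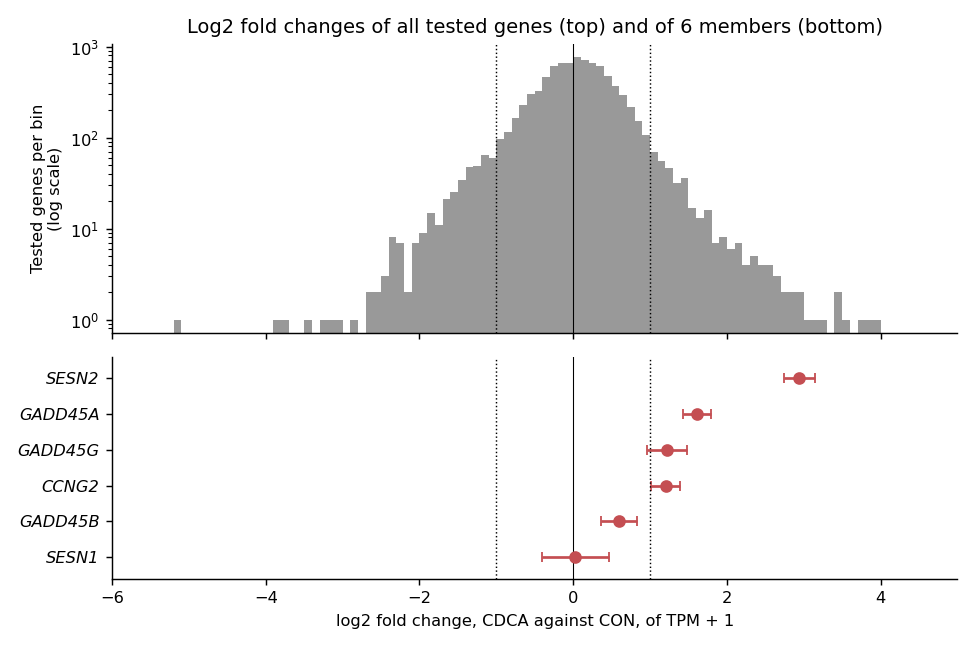
Top, number of tested genes (log axis) in bins of 0.1 of the log2 fold change of TPM + 1, CDCA against CON; bottom, the same fold change for the 6 fitted genes, with 95% intervals from limma, and dotted lines at a log2 fold change of 1 in either direction. SESN2 (2.94) lies far in the right tail, GADD45A, GADD45G and CCNG2 lie past the dotted line at 1, and the interval of SESN1 spans 0.

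The table lists transcripts without naming them, and the 9 genes had 19 such rows. Both listed transcripts of SESN2 were higher in CDCA by a like factor, at ratios of mean TPM of 11.0 and 12.2. The more abundant was at 1.12, 1.24 and 1.29 TPM across CON and 13.82, 13.48 and 13.03 TPM across CDCA. It held 69.1% ± 4.86 of the gene in CON and 66.4% ± 2.13 (SD, n = 3 per group) in CDCA, so the difference of SESN2 was not a matter of 1 listed form. The same held for CCNG2, whose main transcript held 93.4% ± 0.978 and 93.6% ± 1.17 (SD, n = 3 per group) of the gene, with ratios of 2.52 and 2.43 for its 2 transcripts.

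The 3 listed transcripts of GADD45A differed in how far apart the groups were. The most abundant was at 35.57, 31.12 and 27.11 TPM across CON and 112.86, 115.13 and 122.23 TPM across CDCA, a ratio of means of 3.73. The next was at 14.86, 21.34 and 18.58 TPM across CON and 57.07, 42.9 and 24.15 TPM across CDCA. Its CDCA libraries thus spread over more than a factor of 2, and CDCA replicate 3 lay close to CON, whereas the gene sum of that library differed little from the other CDCA libraries. The least abundant of the 3 had a ratio of 1.93. GADD45B, GADD45G, DDIT4 and CCNG1 had 1 listed transcript each.

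Among the 4 listed transcripts of SESN1, the 3 most abundant overlapped between the groups. The fourth had 0.14, 0.10 and 0.17 TPM across CON and was listed at 0 in all 3 CDCA libraries, a level too low for any reading. Of the 4 listed transcripts of SESN3, 2 were at 0 in every library. The most abundant was at 0.50, 0.68 and 0.53 TPM across CON and 0.78, 0.69 and 0.89 TPM across CDCA, without overlap, though CDCA replicate 2 (0.69 TPM) lay next to CON replicate 2 (0.68 TPM).

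**Figure D4:**
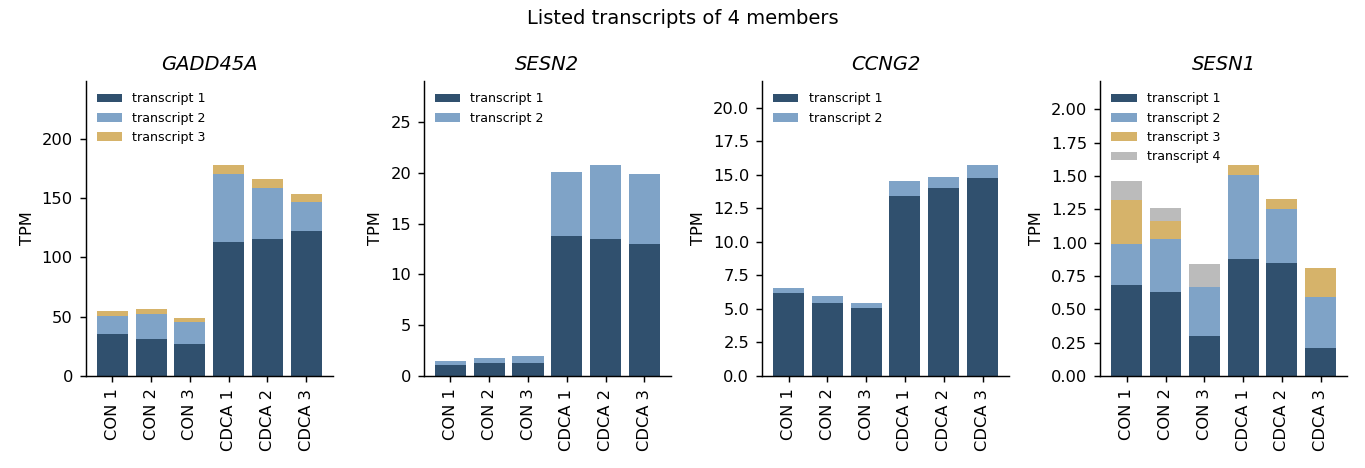
TPM (vertical axis, from 0, with its own scale in each panel) of the listed transcripts of GADD45A, SESN2, CCNG2 and SESN1, stacked and numbered from the most abundant, in the 3 CON and 3 CDCA libraries. Both parts of the SESN2 bars grow in CDCA, the middle part of GADD45A shrinks from 57.07 TPM in CDCA replicate 1 to 24.15 TPM in CDCA replicate 3, and the SESN1 bars differ as much within as between groups.

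The genes most like the 3 members with the largest differences were sought over the 6 libraries, by the Euclidean distance between log2(TPM + 1) values after the CON mean of each gene was subtracted. The CDCA values thus enter the distance, so a near gene has a like fold change by construction. Nearest to SESN2 were CHAC1 (distance 0.325), which degrades glutathione, SLC7A11 (0.391), the cystine transporter, and UCP2 (0.457), a mitochondrial carrier. Their log2 fold changes were 2.90, 2.98 and 2.68. Nearest to GADD45A were CREG1 (0.179), ENSA (0.181) and SNAI1 (0.221), with log2 fold changes of 1.55, 1.58 and 1.62. Nearest to GADD45G were SLC6A8 (0.111), the creatine transporter, PPIF (0.143), a cyclophilin of the mitochondrial matrix, and USP19 (0.172), a deubiquitinase, with log2 fold changes of 1.24, 1.27 and 1.29.

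Genes on which the members act, or that are known to respond to the same factors, were then read from the fit over all 8708 genes, in which the median log2 fold change was 0.05. A call needed a limma FDR under 0.05 and a log2 fold change over 1 in size, which 7.42% of genes met, 3.51% higher (306 genes) and 3.90% lower (340). With totals without the mtDNA-encoded genes these counts were 231 and 464. At an unadjusted limma p under 0.05, with any fold change, 32.3% of all tested genes were higher and 26.7% lower, which is the background for the counts of list genes at that p. Among 16 partners of GADD45 and stress kinases, 9 were tested, with 2 called lower and none higher and a median of -0.21. Both calls were of the mitotic pair that GADD45 proteins bind: CDK1, which fell from 61.6 ± 4.28 to 19.4 ± 0.881 TPM (SD, n = 3 per group) (log2 fold change -1.62, limma FDR 7.9e-06), and CCNB1, which fell from 106 ± 6.50 to 36.8 ± 1.11 TPM (SD, n = 3 per group) (log2 fold change -1.50, limma FDR 6.3e-06). None of the tested MAP kinases and their activators was called by limma. At an unadjusted p under 0.05 and with any fold change, 3 genes of the list were higher and 4 lower. The 3 higher were MAP2K4 (log2 fold change 0.72, limma FDR 7e-05), MAPK9 (0.56, limma FDR 0.0013) and MAPK8 (0.43, limma FDR 0.01). They passed the FDR limit but not that of fold change. Among the lower, so did MAP2K3 (-0.30, limma FDR 0.023) and GADD45GIP1 (-0.38, limma FDR 0.001). These genes were named after their values were seen. MAP3K4, the kinase that GADD45 proteins bind directly, was listed at 0.60 to 0.85 TPM across CON and 0.20 to 0.96 TPM across CDCA and was not tested.

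Of 43 listed genes that carry amino acid and energy signals to mTORC1, 33 were tested, 2 were called higher and none lower, and the median log2 fold change was 0.19. ULK1, the kinase that starts autophagy and that mTORC1 restrains, rose from 6.92 ± 0.181 to 19.3 ± 1.22 TPM (SD, n = 3 per group) (log2 fold change 1.35, limma FDR 1.4e-05). PRKAG1, a subunit of the AMP-activated kinase, rose from 1.84 ± 0.504 to 4.95 ± 0.962 TPM (SD, n = 3 per group) (log2 fold change 1.07, limma FDR 0.0025). Without CON replicate 3 its log2 fold change was 0.92 and without CDCA replicate 1 it was 0.96, both under the limit. It was also lost with the highest listed transcript (0.99) and with totals without the mtDNA-encoded genes (0.98). PRKAA2, a catalytic subunit of the same kinase, chosen after its values were seen, was at -0.86 and was called lower only without CDCA replicate 1 (-1.02) among the fits that left out a library. The targets that sestrins act on, the GATOR2 genes MIOS, WDR59, SEH1L and SEC13, had log2 fold changes of 0.12, -0.54, 0.19 and 0.19 and were not called. WDR24 of the same complex was under the 1 TPM limit, at 0.19 to 0.71 TPM across CON and 0.10 to 1.58 TPM across CDCA. At an unadjusted p under 0.05 in limma and with any fold change, 14 genes of the list were higher and 7 lower.

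None of the 12 tested partners of the cyclins G was called by limma, and their median log2 fold change was 0.11. That median was 0.0002 without CON replicate 3 and -0.03 with totals without the mtDNA-encoded genes. At an unadjusted p under 0.05, with any fold change, 6 were higher and 4 lower. The partner closest to the limit was PPP2R1A, a scaffold subunit of protein phosphatase 2A, chosen after its values were seen, at 0.93, 1.62 and 1.37 TPM across CON and 3.80, 3.50 and 2.40 TPM across CDCA (log2 fold change 0.87, limma FDR 0.0061). Without CDCA replicate 3 it was 1.02 and called.

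The lists of genes known as targets of factors that are said to induce some of the members differed in their counts of calls. A gene can be a target of more than 1 factor, as BNIP3 below, so the lists do not separate the factors. Whether any of these factors acted on the members was not tested. Of the 22 tested gene IDs of ATF4 and CHOP targets, 16 were called higher and none lower, with a median log2 fold change of 1.83. At an unadjusted p under 0.05 in limma, 1 of the 22 was lower with any fold change. The largest rises were those of DDIT3, which encodes CHOP (log2 fold change 3.86, limma FDR 1.8e-06) and has a second gene ID, at about 2 TPM in CDCA, that is also among the 16 calls, and NUPR1, a stress-induced chromatin protein (3.73, limma FDR 2.5e-06). Of 19 tested p53 targets, 3 were called higher and 3 lower, with a median of -0.05. That median was -0.20 without CDCA replicate 3 and also -0.20 with the highest listed transcript. PMAIP1 (log2 fold change 1.78, limma FDR 2.1e-05) and BBC3 (1.41, limma FDR 0.00035), which encode the death proteins NOXA and PUMA, rose. PHLDA3, an inhibitor of AKT (-1.34, limma FDR 0.0089), and TP53I3, an oxidoreductase (-1.01, limma FDR 0.00046), fell. Without CDCA replicate 2, TP53I3 was at -0.95 and PLK2, a stress-induced kinase chosen after its values were seen, at -0.97, so that 1 of the 3 calls was left. TP53I3 was also lost with the highest listed transcript (-0.73) and without CON replicate 3 (-0.95), and PLK2 with the listed TPM rescaled to 1000000 (-0.99), without CON replicate 1 (-0.97) and without CON replicate 2 (-0.998, just inside the limit).

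Of 9 tested FOXO targets, 1 was called, and the median log2 fold change was 0.25. BNIP3, which serves mitophagy and is a target of both FOXO and HIF, fell from 9.27 ± 0.159 to 2.93 ± 0.312 TPM (SD, n = 3 per group) (log2 fold change -1.39, limma FDR 3.3e-05). No FOXO target was called higher by limma, while 6 were higher and 3 lower at an unadjusted p under 0.05 with any fold change. Of 14 tested HIF targets, among which DDIT4 would count, 3 were called lower and 1 higher, with a median of -0.26. With totals without the mtDNA-encoded genes and with median ratio scaling, 5 were called lower. HK2, a hexokinase, fell (log2 fold change -1.56, limma FDR 3.7e-06) and VEGFA, the angiogenic factor, rose (1.35, limma FDR 0.00011). Of 6 tested targets of the glucocorticoid receptor, another known inducer of DDIT4, with a median of 0.24, the kinase gene SGK1 was called lower (log2 fold change -1.02, limma FDR 0.0001). Without CON replicate 2 it was at -0.95 and not called. No such target was called higher by limma, with 1 higher and 2 lower at an unadjusted p under 0.05.

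**Figure D5:**
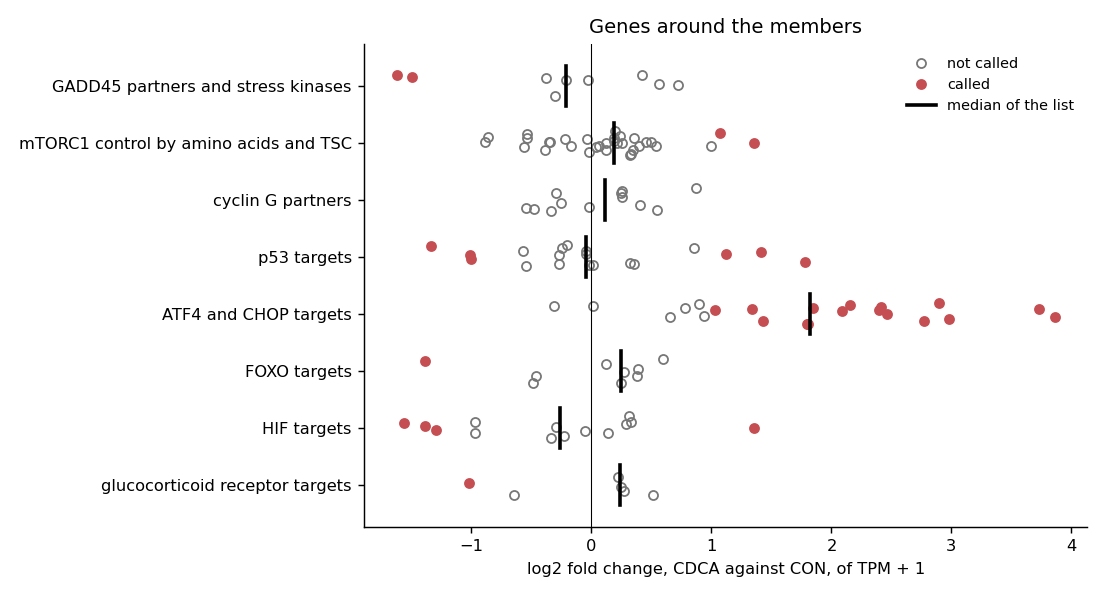
Log2 fold change of TPM + 1, CDCA against CON (horizontal axis), of each tested gene in 8 lists of genes around the members; filled points passed the limits for a call, open points did not, and black bars are list medians. The ATF4 and CHOP targets lie mostly to the right, with a median of 1.83, while in this fit the medians of the other 7 lists lie between -0.26 and 0.25.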

How the data were processed

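RNA from 3 CON and 3 CDCA libraries was analysed, grouped by the sample labels. Values are the TPM that the authors obtained with RSEM and deposited rounded to 2 decimals, without read counts or transcript names, so no counting interval was computed and the count test of the study (edgeR) was not used. The submitters' processing notes also name Bowtie 0.12.2 and mm10, a mouse build, whereas the gene IDs are those of the pig. The build used for the pig reads is not given in the sources used here, so no coordinates are printed. Sequences were not used here, and the planned motif search was not run.

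Rows were summed per gene ID. Gene IDs were named from an Ensembl table (15029 IDs), the deposited table (2472) and NCBI gene numbers (573). The 8708 genes whose mean reached 1 TPM were fitted in R 4.3.3 with limma 3.58.1 (trend) on log2(TPM + 1), with Benjamini-Hochberg adjustment. A call needed an FDR under 0.05 and a log2 fold change over 1 in size. The steps were also run on simulated data in which the spreads were shuffled among genes, and no result here rests on that run. The members and lists were chosen with earlier results of these data known. Named genes were the members, the cell type markers, up to 2 called rises and falls per list, and the 3 nearest genes of 3 members. Any other gene is an illustration or is said to be chosen later. The value of 1 gene of the lists is not reported here.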

Additional observations from a re-analysis of the deposited data

How the results depend on the processing

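Over the alternatives that were run, the log2 fold change of SESN2 ran from 2.70 to 3.45 and that of GADD45A from 1.46 to 1.87. GADD45G ran from 1.14 to 1.60, CCNG2 from 1.07 to 1.32 and GADD45B from 0.48 to 0.70. The groups of these 5 members were separated, so leaving out a library or changing the pseudocount could not turn the sign. With no filter and with the replicate block the estimate is the same by design, so these fits do not test it. SESN1 lay between -0.09 and 0.18 and changed sign with single libraries left out. It fell under the filter when only the highest listed transcript was kept. With totals without the mtDNA-encoded genes, the median of all genes moved from 0.05 to -0.08. With no filter, SESN3 was at 0.17 (SE 0.13), and with the listed TPM rescaled to 1000000 at 0.29 (SE 0.18). The cause of the following moves was not tested.

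With a pseudocount of 0.1 TPM, 509 genes were called higher in place of 306 and 505 lower in place of 340. With the listed TPM rescaled to 1000000 they were 523 and 481. In the mTORC1 list, 1 gene in place of 2 was called higher with totals without the mtDNA-encoded genes. In place of 0, 1 was called lower with those totals, which was RRAGC (-1.04). With a pseudocount of 0.1 TPM (-1.54) and after rescaling to 1000000 (-1.23), the 1 called lower was PRKAA2. RRAGC, chosen after its values were seen, had a log2 fold change of -0.89 (limma FDR 0.00084) in the fit used above. With 1 library left out, 1 to 3 of that list were higher and 0 to 1 lower. Of the cyclin G partners, 1 in place of 0 was called higher with a pseudocount of 0.1 TPM, after rescaling and with the highest listed transcript, and 0 to 1 with 1 library left out. Of the HIF targets, 5 in place of 3 were called lower with totals without the mtDNA-encoded genes and with median ratio scaling. The p53 targets called lower were 1 to 3 with 1 library left out. For the glucocorticoid receptor targets 0 in place of 1 was called lower with the highest listed transcript, and 0 to 1 with 1 library left out. List medians moved as well. That of the HIF targets was -0.40 with totals without the mtDNA-encoded genes, and that of the FOXO targets -0.01 with no filter. For the glucocorticoid receptor targets it was 0.08 with the highest listed transcript.

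Same-numbered CON and CDCA libraries did not deviate together over all tested genes (r of their deviations -0.04, -0.09 and -0.05). With so few libraries this cannot exclude a shared culture or batch, and the labels do not say whether the numbers pair them. With the replicate block, no count of calls moved by over 1.5 times.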

Other observations

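Several regulators and targets that belong beside these genes were listed under 1 TPM in every library. ATF4 was at 0 to 0.04 TPM, its target ASNS, which makes asparagine, at 0 to 0.19 TPM, and CDKN1A, the p53 target that encodes the cyclin-dependent kinase inhibitor p21, at 0.05 to 0.62 TPM. TXNIP, a partner of DDIT4, was at 0 to 0.45 TPM. These values were picked after they were seen, and as with CCNG1 no direction can be read from them. CASTOR1, the arginine sensor that acts on GATOR2 as SESN2 does for leucine, was also chosen after its values were seen and was at 4.01, 3.30 and 2.30 TPM across CON and 7.28, 7.42 and 7.15 TPM across CDCA. Its log2 fold change of 1.00 (SE 0.15, limma FDR 0.0017) lay just inside the limit for a call, and was over it in 6 of the alternatives that were run, 3 of them with 1 library left out.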
